A study of Mus musculus with 2 samples.

Results

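A set of DOCK family genes beside Dock8 was examined in neurons of the dorsal root ganglion (DRG), the sensory ganglion beside the spinal cord, in mice that differ in DOCK8. The genes are Dock1, Dock2, Dock3, Dock4, Dock5, Dock6, Dock9, Dock10 and Dock11, and they were taken as all 41 non-control probes that carry one of these 9 gene names, of 56601 probes and 37008 gene names on the array. RNA of each genotype was hybridised to 1 single-colour Agilent array, so the study holds 2 arrays, which lay on 1 slide. The control mice were Dock8+/- and carried the AND T cell receptor transgene, and the compared mice were Dock8-/- with the same transgene, both on the C57BL/6 strain. The control is therefore a heterozygote, and no sample without the transgene was compared here. The labels give the Dock8+/- sample a low and the Dock8-/- sample a high level of interleukin-31, an itch cytokine. The sources used here give neither the age of the mice nor how many were pooled in each sample.

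DOCK proteins are guanine nucleotide exchange factors. Their DHR2 domain loads the small GTPases Rac or Cdc42 with GTP, and the active GTPase then rearranges the actin cytoskeleton in migration, phagocytosis and the growth of axons and dendrites. DOCK-A proteins (Dock1, Dock2, Dock5) and DOCK-B proteins (Dock3, Dock4) work with ELMO adaptors and act on Rac. DOCK-D proteins (Dock9, Dock10, Dock11) act mainly on Cdc42, as does DOCK8, which belongs with Dock6 to the DOCK-C group and is known from immune cells. The comparison asked whether transcripts of these family members were higher where DOCK8 is missing.

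With 1 array per genotype there is no replicate check and no test, and a 2-fold difference is used only as a description of size. Differences are log2 values of Dock8-/- minus Dock8+/-, each array scaled to the 75th percentile of its own intensities, which was 303.8 in the Dock8+/- sample and 145.6 in the Dock8-/- sample. A probe counts as measured when the scanner software called it well above background on both arrays. The error after ± is the scanner software's own error of the 2 spots, which covers the reading of the spots and not the spread between animals. On the scale of spike-in transcripts every difference is lower by 1.85, so all directions here are relative to the other genes of the same array. All 12 sensory neuron markers were measured. Among them Prph, a peripheral neuron filament gene, differed by -0.16, Avil, encoding advillin, by 0.01 and Scn10a, a nociceptor sodium channel gene, by 0.35. Markers of glia, macrophages and fibroblasts were measured as well.

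Dock8 itself was too dim to check the genotypes. A single one of its 5 probes passed in the Dock8+/- sample, at a processed intensity of 20.5, where the lowest passing value was 17.4, and it read 6.87 without passing in the Dock8-/- sample. The remaining 4 passed in neither sample. The sources used here do not say which stretch of Dock8 is deleted, so a probe outside that stretch would check nothing.

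Each probe reads 1 short stretch of a transcript, so the probes decide what is seen of a gene. The probes below lie in RefSeq transcripts well 5′ of the last probe of their gene, and the results set their values beside those of that last probe. They were chosen after their values were seen. The letters are the array's own probe sequences, 5′ to 3′, with coordinates on mouse build mm9. Dock1 was read at chr7:142343955-142344014 (plus strand), Dock4 at chr12:41472279-41472338 (plus strand) and Dock10 at chr1:80589176-80589235 (minus strand). The Dock6 probe matches chr9:21628940-21629896 and the Dock9 probe chr14:122004462-122006042 (both minus strand). Those stretches of 957 and 1581 bases are longer than the probe length of 60, so both probes bridge an intron.
Dock1: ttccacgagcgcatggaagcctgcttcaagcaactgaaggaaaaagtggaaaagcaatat
Dock4: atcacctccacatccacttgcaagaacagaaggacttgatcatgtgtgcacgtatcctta
Dock6: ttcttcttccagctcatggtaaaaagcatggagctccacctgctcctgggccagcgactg
Dock9: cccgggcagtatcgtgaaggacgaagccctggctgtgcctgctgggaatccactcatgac
Dock10: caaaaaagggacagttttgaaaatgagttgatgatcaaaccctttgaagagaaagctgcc

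No measured DOCK gene was 2-fold apart between the genotypes on its brightest probe. Dock3 was 1.65-fold, Dock9 1.54-fold, Dock4 1.48-fold and Dock11 1.31-fold higher in the Dock8-/- sample, and Dock5 was 1.40-fold lower. Dock10 (1.09-fold higher), Dock1 (1.02-fold higher) and Dock6 (1.07-fold lower) differed by less than their scanner error. Dock2 was well above background in the Dock8+/- sample only. Before scaling, all measured DOCK probes but 1, a Dock4 probe, were dimmer on the Dock8-/- array, which was dimmer as a whole.

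**Figure D1:**
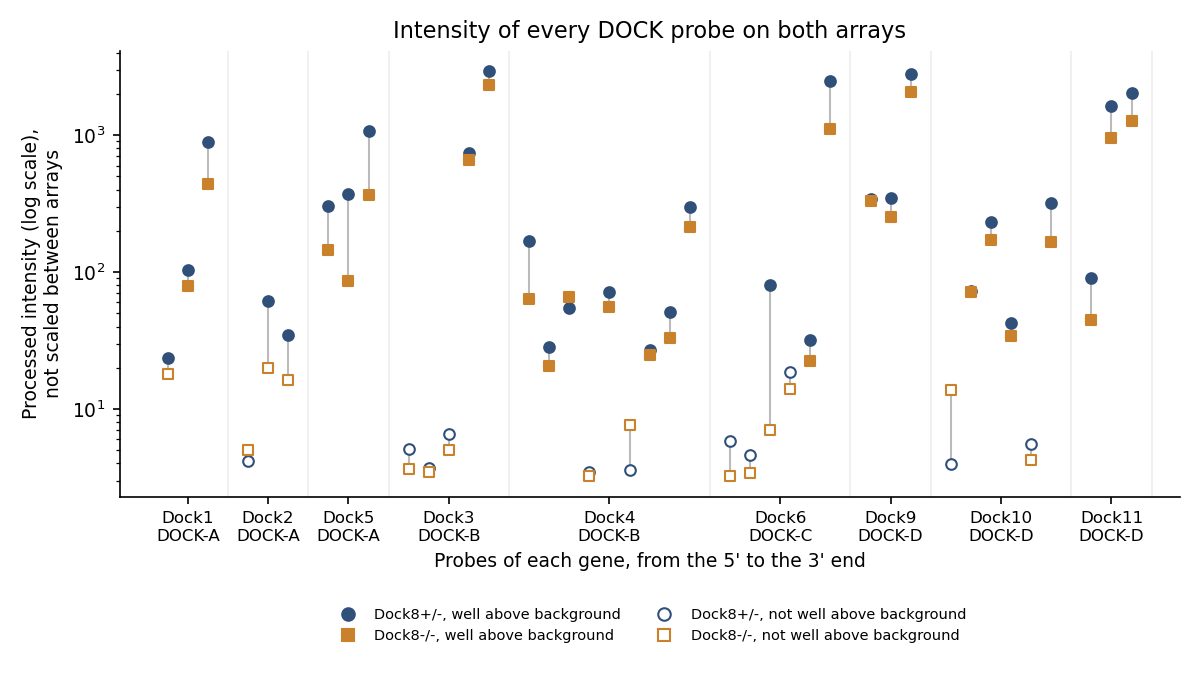
Processed intensity (log axis, before scaling between arrays) of all 41 DOCK probes, ordered from the 5′ to the 3′ end of each gene, on the Dock8+/- array (circles) and the Dock8-/- array (squares). Filled symbols are well above background; 26 probes are filled on both arrays, 4 on the Dock8+/- array only and 11 on neither.

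Among DOCK-A genes, Dock5 was lower, Dock1 differed by probe and Dock2 was read in the Dock8+/- sample only. Dock5, a Rac exchange factor of osteoclasts and other cells, read 1066.1 and 363.9 on its brightest probe in the Dock8+/- and Dock8-/- samples, a scaled difference of -0.49 ± 0.20. A second Dock5 probe, 3558 bases upstream in the genome, read 373.4 and 85.8, a difference of -1.06 ± 0.22, the one measured DOCK probe at least 2-fold lower. The third, designed on a cDNA clone, read 306.3 and 145.6 and lay at -0.01 ± 0.21. The mean over the 3 Dock5 probes was -0.52 ± 0.52 (SD over probes), and none of them was above 0. Normexp background correction, which models the background of each spot, brought the -1.06 to -0.72.

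Dock1, the exchange factor of phagocytosis and cell migration, read 896.7 and 436.2 on its brightest probe, a difference of 0.02 ± 0.20. The Dock1 probe printed above, 21178 bases upstream in the gene, read 103.6 and 79.0 and gave 0.67 ± 0.23. The remaining Dock1 probe read 23.6 and 18.0 and was well above background in the Dock8+/- sample only. Its scaled difference was 0.67 ± 0.47, which rests on the dim reading of the Dock8-/- sample. The gene thus has no single value, and its brightest probe turned to -0.13 under normexp.

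Dock2 is the Rac exchange factor of lymphocytes and other white blood cells. A Dock2 probe on an Ensembl transcript read 61.1 in the Dock8+/- sample and 20.0 in the Dock8-/- sample, where it was not well above background. That dim reading lay above the lowest passing value of its array (16.1). Against it, this probe was 1.46-fold lower, a scaled difference of -0.55 ± 0.39, which is not a lower limit. The probe at the 3′ end read 34.5 and 16.3 and also passed in the Dock8+/- sample only. Its scaled difference was -0.02 ± 0.38, also taken against a dim reading. The third read 4.17 and 5.01, not well above background on either array. Under normexp the probe on the Ensembl transcript stood at 0.29. However, normexp also put Dock3 probes at background on both arrays at 0.58, 0.75 and 0.77, so a value above 0 cannot show the direction of a dim probe. With no probe measured on both arrays, the direction of Dock2 was not settled.

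Several markers of the cells in which Dock2 is known were lower in the Dock8-/- sample. All 9 macrophage markers were measured and 8 were at least 2-fold lower, beside 7.04% of all measured genes. The summed scaled signal of the 9 markers was 145.1 in the Dock8+/- and 37.7 in the Dock8-/- sample. Cd68 differed by -1.55 and Lyz2, encoding lysozyme, by -2.87. Of 9 leukocyte markers 8 were measured, 2 were at least 2-fold lower, and the sum was 38.4 and 22.7. Ptprc, which encodes CD45, differed by 0.24 on its brightest probe but by -0.90 as the mean of its probes. The part of these cells in the Dock2 value was not tested, and in bulk RNA fewer cells of a type and less RNA per cell cannot be told apart.

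Both DOCK-B genes were higher in the Dock8-/- sample. Dock3, known from neurons and also called modifier of cell adhesion, read 2940.8 and 2319.8 on its brightest probe, a difference of 0.72 ± 0.20. A second Dock3 probe, 401 bases upstream, read 743.1 and 654.7 and gave 0.88 ± 0.20. The gap between these values is smaller than the error of either. The other 3 Dock3 probes, with intensities of at most 6.53, were at background on both arrays.

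Dock4, a Rac exchange factor of dendritic spines and cell junctions, had 9 probes, of which 7 were measured and 6 were higher. Its brightest probe read 301.1 and 213.6, a difference of 0.57 ± 0.21. The Dock4 probe printed above read 71.1 and 55.9 and gave 0.72 ± 0.23, and 3 further probes gave 0.43, 0.59 and 0.95. Probes on cDNA clones from the 5′ part of the gene lay furthest apart. One read 55.0 and 65.5, at 1.31 ± 0.25 the highest of all measured DOCK probes, and another read 167.8 and 63.3, at -0.34 ± 0.22. The other 2 Dock4 probes were at background on both arrays. The mean over the 7 measured probes was 0.60 ± 0.51 (SD). The highest value was 0.89 under normexp and 1.09 under loess, a scaling that follows the signal level.

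Dock6, a DOCK-C exchange factor for Rac and Cdc42 known in neurite growth, differed little on its brightest probe. That probe read 2488.7 and 1113.4, a difference of -0.10 ± 0.20. A dim probe read 32.2 and 22.4 and gave 0.54 ± 0.36. The Dock6 probe printed above, which bridges an intron, read 80.9 in the Dock8+/- sample and 7.05 in the Dock8-/- sample, where it was not well above background. This makes it at least 2.40-fold lower, the largest bound among DOCK probes. Its normexp difference was -0.23, where Dock6 probes dim on both arrays stood at 0.64 to 0.77. The other 3 Dock6 probes were dim on both arrays. Dock6 stood at 0.22 ± 0.45 (SD) as the mean of its 2 measured probes, with the opposite sign to its brightest probe.

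All 10 measured probes of the DOCK-D genes lay above 0, from 0.03 to 1.03, although the lowest, a Dock11 probe, turned to -0.10 under quantile normalisation, -0.19 under loess and -0.10 in the authors' deposited value table. Dock9, also called zizimin-1 and known for dendrite growth through Cdc42, read 2804.8 and 2068.9 on its brightest probe, a difference of 0.62 ± 0.20. A second Dock9 probe, 950 bases upstream, read 349.4 and 254.5 and gave 0.60 ± 0.21. The Dock9 probe printed above read 339.8 and 330.3, nearly equal before scaling, and gave 1.02 ± 0.21. The mean over the 3 probes was 0.75 ± 0.24 (SD), and all of them were higher. The value of 1.02 was 0.78 under normexp.

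Dock10, known from lymphocytes and from dendritic spines, differed by 0.12 ± 0.21 on its brightest probe, which read 319.5 and 166.4. The Dock10 probe printed above read 73.2 and 71.7 and gave 1.03 ± 0.23. Another 2 gave 0.60 ± 0.21 (intensities of 233.9 and 170.4) and 0.75 ± 0.31 (42.2 and 34.0). Thus 3 of 4 measured probes gave a larger difference than the brightest one, and the mean was 0.63 ± 0.38 (SD). The remaining 2 Dock10 probes were dim on both arrays. The value of 1.03 was 0.76 under normexp and 0.84 under loess.

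Dock11, an exchange factor for Cdc42 on the X chromosome known from B cells, read 2017.0 and 1263.2 on its brightest probe, a difference of 0.39 ± 0.20. A neighbouring probe that shares 7 bases with it read 1623.1 and 951.8 and gave 0.29 ± 0.20. The third Dock11 probe read 91.2 and 44.5 and gave 0.03 ± 0.25. Markers of lymphocytes, in which Dock10 and Dock11 are known, were read in part. Of 6 T and NK cell markers 2 were measured, with Cd3e, a chain of the T cell receptor complex, at 1.06 and the other, Lck, hardly different. Another 3, Cd2, Cd3d and Nkg7, were read in the Dock8+/- sample only and were lower by bounds of 1.35-fold to 4.01-fold, and Cd3g was not well above background in either sample. Lck, Cd2, Cd3d and Nkg7 are named after their values were seen. With a looser filter on dim probes (positive and significant on both arrays) 5 of these markers had a median of -1.18, with 1 at least 2-fold higher and 3 lower. With that filter 3403 of all 24290 genes were at least 2-fold higher and 2070 lower. The summed scaled signal of the list was 2.37 in the Dock8+/- and 3.02 in the Dock8-/- sample. Of 4 B cell markers 1 was measured, Cd79a was dim on both arrays, and the sum was 1.20 and 0.46. The part of lymphocytes in the Dock10 and Dock11 values was not tested.

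**Figure D2:**
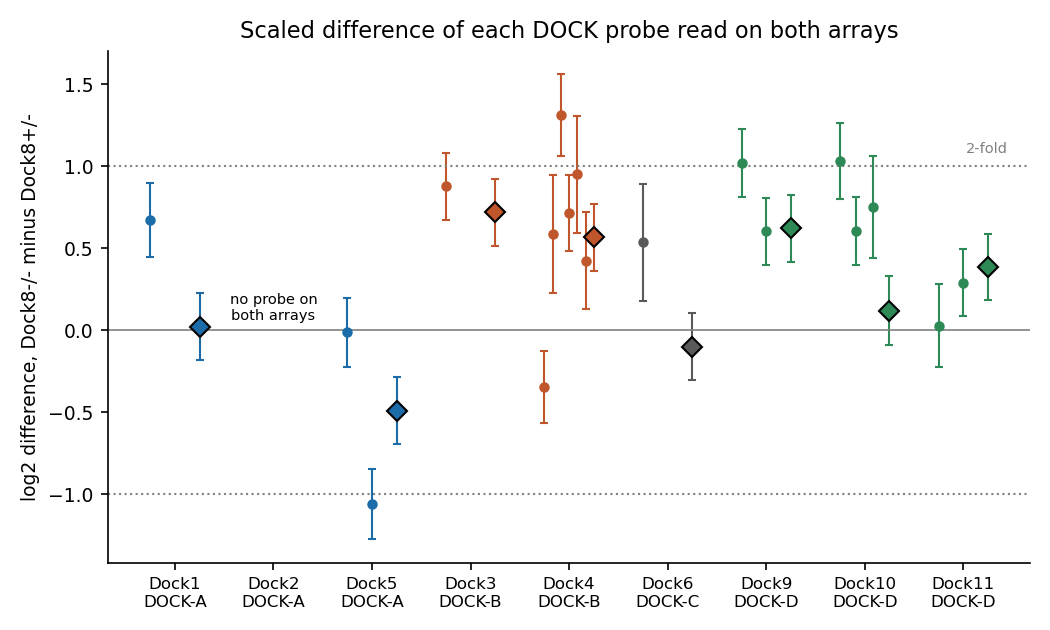
Scaled log2 difference, Dock8-/- minus Dock8+/-, of the 26 DOCK probes measured on both arrays, from the 5′ to the 3′ end within each gene. Diamonds mark the brightest probe of a gene, bars the scanner error and dotted lines a 2-fold difference; probes of DOCK-D genes lie between 0.03 and 1.03, and those of Dock5 between -1.06 and -0.01.

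Counted over genes, the DOCK median lay slightly above that of all measured genes on the percentile scale. On the spike-in scale all measured DOCK genes were lower. Of 8 measured DOCK genes, 6 were above 0 and 2 below, beside 51.8% and 48.2% of all 18649 measured genes. Dock1 and Dock10 among those above 0, and Dock6 among those below, differed by less than their scanner error. At the 1.5-fold size 2 of the 8 were higher (20.8% of all genes) and 0 lower (16.9%), and at 2-fold 0 were higher (9.08%) and 0 lower (7.04%). Their median difference was 0.25, beside 0.03 over all measured genes. This order depended on the filter, since with no filter on dim probes the median was 0.12 over 9 DOCK genes and 0.43 over all genes, and with the looser filter 0.12 and 0.08. Within the range of mean signal that the 8 genes span, 8239 genes had a median of -0.04, with 425 at least 2-fold higher and 559 lower. By group the gene medians were -0.23 for DOCK-A, 0.64 for DOCK-B and 0.39 for DOCK-D, and Dock6 stood alone for DOCK-C. The split over all genes depended on the processing, with 1694 at least 2-fold higher and 1312 lower here, but 1296 against 1532 with loess, 703 against 865 with normexp and 57 against 16293 on the spike-in scale.

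**Figure D3:**
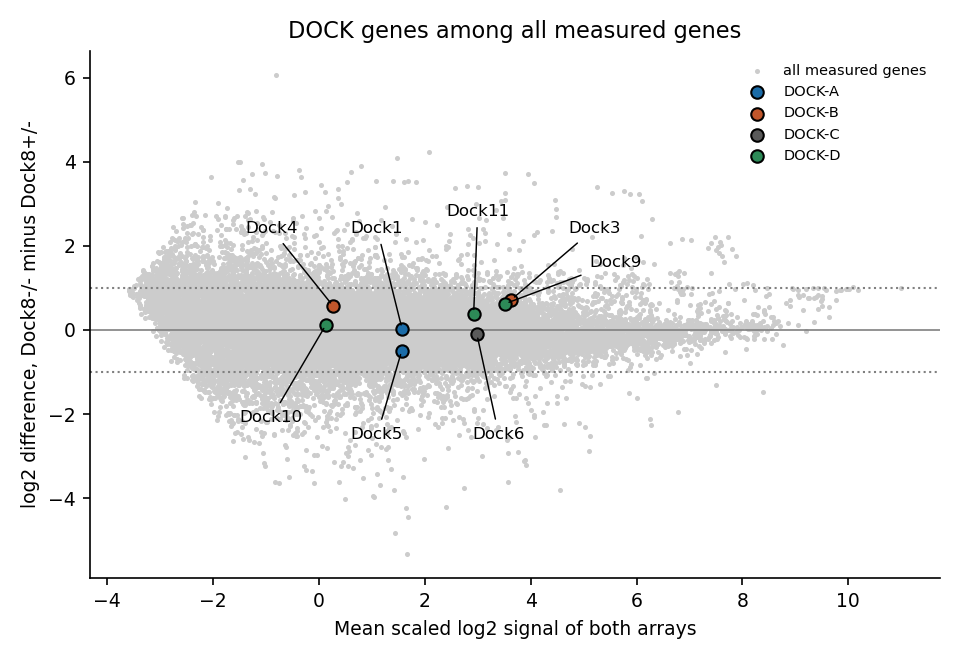
Log2 difference, Dock8-/- minus Dock8+/-, against the mean scaled log2 signal of both arrays for 18649 measured genes (grey), with the 8 measured DOCK genes coloured by group. Dotted lines mark 2-fold; the DOCK genes lie between -0.49 and 0.72, inside both lines.

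Counted over probes, the DOCK median lay further above 0 than over genes. Of 26 measured DOCK probes, 21 were above 0 (55.0% of all 27734 measured probes) and 5 below (45.0%). At least 1.5-fold, 13 were higher (25.5%) and 1 lower (16.6%), and at least 2-fold, 3 were higher (11.8%) and 1 lower (7.07%). Their median was 0.58, beside 0.08 over all measured probes. Probes of 1 gene share its transcripts and are not replicates. The 3 highest belong to Dock4, Dock9 and Dock10, and none of them is the brightest probe of its gene.

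The counts over genes and over probes rest on different stretches of the transcripts. In all 8 measured genes the brightest probe was also the one nearest the 3′ end. Those 8 probes had a median of 0.25 with 6 above 0, while the other 18 measured probes had a median of 0.60 with 15 above 0 and ranged from -1.06 to 1.31. The part of transcript position in this was not tested, since the 3′ probes are also the bright ones. Disagreement within a gene was common on these arrays. Over 6234 genes with at least 2 measured probes, the median range between probes was 0.66 and 40.1% had probes of opposite sign. For the 8 DOCK genes the median range was 0.64 and 2, Dock4 and Dock6, had probes of opposite sign.

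Dim probes leaned upward in general. Over all probes with a mean scaled log2 signal below -2 the median difference was 0.57, and 77.0% were above 0. The 5 DOCK probes in that range had a median of 0.59, close to that of all such probes. Between -2 and 0 the median was 0.13 over all probes and 0.64 over 8 DOCK probes, of which 6 were above 0. Above 0 it was -0.04 over all probes and 0.39 over 13 DOCK probes, of which 10 were above 0. The share of DOCK probes read in the Dock8+/- sample alone, 4 of 41 (9.76%), was near that of all probes, 7.89%, and 0 were read in the Dock8-/- sample alone (1.69% of all probes).

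The ELMO adaptors, which bind DOCK-A and DOCK-B proteins and bring them to the membrane, split in direction. Elmo1 read 130.0 and 139.4 on its brightest probe, a difference of 1.16, and its 5 probes ranged from 0.46 to 1.58. Under normexp Elmo1 was at 0.87, below 2-fold. Elmo2 differed by 0.86 on a single probe. Elmo3 differed by -0.52, and by -0.10 under normexp. Of these 3 genes, 1 was at least 2-fold higher (9.08% of all measured genes) and 0 lower (7.04%), with a median of 0.86.

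The 7 Rac and Cdc42 family GTPases, on which DOCK proteins act, had a median of 0.28. Of them, 0 were at least 2-fold higher (9.08% of all measured genes) and 1 was lower (7.04%). Rac1, the widely expressed Rac, read 3323.7 and 2003.5, a difference of 0.33. Cdc42 read 4784.8 and 2792.4, a difference of 0.28, and its other probe gave 0.06. Rac3, the neuronal Rac, was at -0.52, and Rhog, which recruits ELMO, at 0.83. Rac2, the Rac of blood cells and a target of Dock2, read 202.0 and 23.7, a difference of -2.03, which was -0.87 under normexp. Macrophage markers were lower beside Rac2, with a median of -1.55, and their part in its value was not tested.

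Upstream adaptors and receptors had a median of 0.29 over 9 genes, with 1 at least 2-fold higher (9.08% of all measured genes) and 0 lower (7.04%). Dcc, the netrin receptor that signals to Dock1, read 29020 and 56407 on its single measured probe, a difference of 2.02, and that probe holds a purine repeat. Crk, the adaptor that joins DOCK1 to p130Cas, was at 0.88. Nck1, an SH2 and SH3 adaptor, was at -0.93 with its other probe at -0.25, and Pxn, encoding paxillin, was at -0.80.

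**Figure D4:**
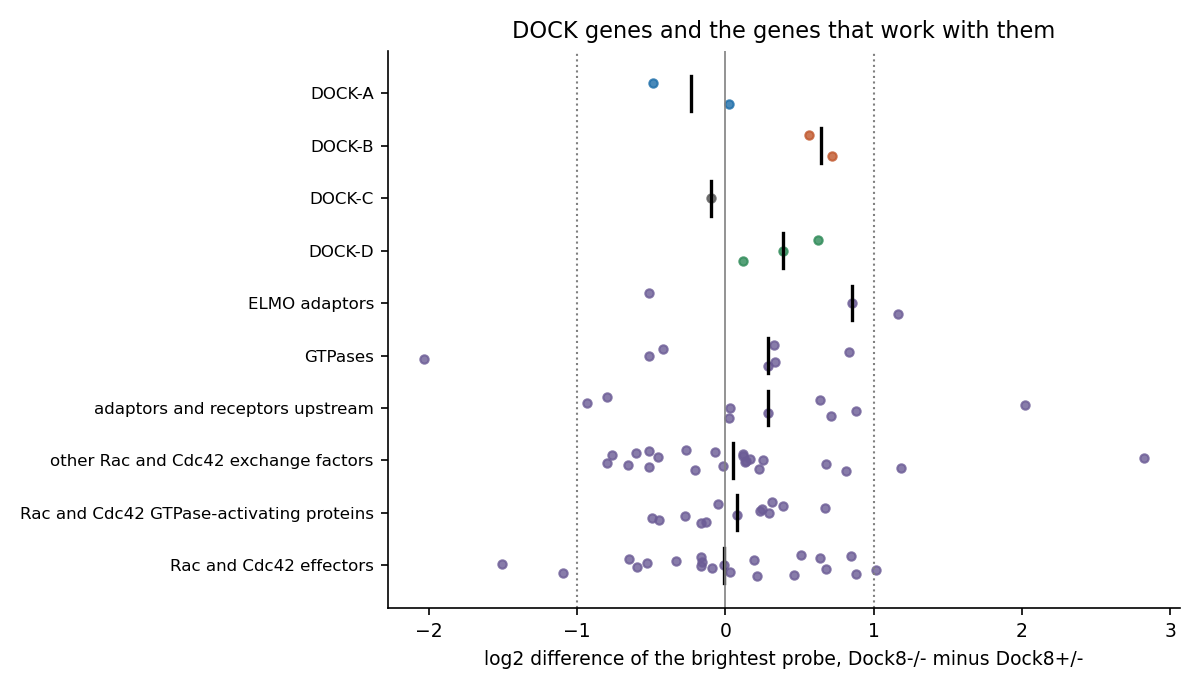
Log2 difference, Dock8-/- minus Dock8+/-, of the brightest probe of each measured gene (points) and the median (black bar) in the 4 DOCK groups and the lists of genes that work with them. Dotted lines mark 2-fold; the list medians lie between -0.23 for DOCK-A and 0.86 for ELMO adaptors, and single genes range from Rac2 at -2.03 to Prex2 at 2.82.

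Other exchange factors for Rac and Cdc42 centred near the median of all genes. Of 26 such genes 22 were measured, and 2 were at least 2-fold higher (9.08% of all measured genes) and 0 lower (7.04%). The median of 0.05 over the 22 genes turned below 0 under normexp, without purine-repeat probes and with either looser filter on dim probes. Prex2, a Rac exchange factor that responds to phosphoinositides, read 108.4 and 366.9, a difference of 2.82, on a single measured probe that holds a purine repeat. Fgd4, a Cdc42 exchange factor needed in Schwann cells, was at -0.80, and -0.24 under normexp. Swap70, a Rac-binding protein of B cells and mast cells, was at -0.77, though its 3 probes reached up to 0.92.

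GTPase-activating proteins, which switch Rac and Cdc42 off, had a median of 0.08 over 13 genes. Quantile normalisation, loess and the authors' deposited value table turned this median below 0. Of the 13 genes, 0 were at least 2-fold higher (9.08% of all measured genes) and 0 lower (7.04%). Racgap1, known in cell division, was at 0.67 and Srgap1, a Slit-Robo signalling protein, at 0.39. The lowest were Arhgap24 (-0.50) and Arhgap22 (-0.45), which both act on Rac.

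Effectors, which act when Rac or Cdc42 is loaded with GTP, had a median of -0.01 over 21 genes. That median was above 0 under quantile normalisation, loess, the percentile of detected probes, the mean of probes and the authors' deposited value table. Of the 21 effectors, 1 was at least 2-fold higher (9.08% of all measured genes) and 2 were lower (7.04%). Cyfip1, a subunit of the WAVE complex, was at 1.01 with its other probe at -0.42. Baiap2, encoding the Rac-binding protein IRSp53, was at 0.88. Nckap1l, the WAVE subunit of blood cells, was at -1.51, and Brk1, the smallest WAVE subunit, at -1.09. Under normexp Cyfip1 was at 0.78 and Nckap1l at -0.82, which left 0 effectors at least 2-fold higher and 1 lower. On the spike-in scale the medians of all these lists were below 0.

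Markers of several other cell types differed by more than the DOCK genes. Of 6 fibroblast markers 5 were at least 2-fold lower, beside 7.04% of all measured genes. The summed scaled signal of the fibroblast markers was 834.6 in the Dock8+/- and 255.2 in the Dock8-/- sample. Col3a1, a fibrillar collagen gene, was at -3.21. All 3 measured skeletal muscle markers were at least 2-fold lower, and Acta1, muscle actin, was lower by a bound of 9.17-fold. The 6 satellite glia markers had a median of 0.72 and summed to 550.5 and 761.8, though Fabp7, a glial fatty acid binding protein, was at -2.21. The 7 Schwann cell markers had a median of -0.62 and summed to 591.0 and 487.0. Oligodendrocyte and astrocyte markers had a median of 1.35 and summed to 13.2 and 56.3, and endothelial markers had a median of -0.39. The 12 sensory neuron markers had a median of 0.06 and summed to 1425 and 1388. The part of these cells in the DOCK values was not tested.

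Under other ways of processing most DOCK genes kept their side of 0. Leaving aside the spike-in scale, Dock3 lay between 0.47 and 0.80, Dock9 between 0.39 and 0.75, Dock4 between 0.41 and 0.60, Dock11 between 0.18 and 0.44, and Dock5 between -0.58 and -0.44. Dock10 lay between 0.08 and 0.63, Dock1 between -0.13 and 0.35 and Dock6 between -0.30 and 0.22, so the signs of Dock1 and Dock6 were not settled. On the spike-in scale all 8 genes were at least 2-fold lower, from -2.34 for Dock5 to -1.13 for Dock3, where the median of all measured genes was -1.82.

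**Figure D5:**
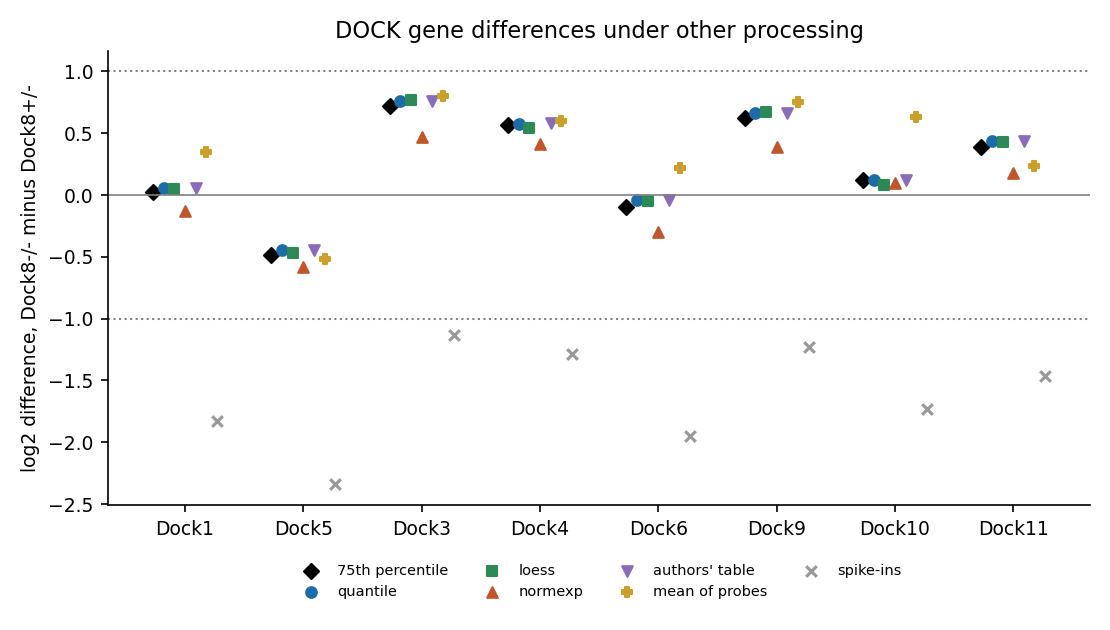
Log2 difference, Dock8-/- minus Dock8+/-, of each measured DOCK gene under 7 ways of processing, with dotted lines at 2-fold. Dock3, Dock4, Dock9, Dock10 and Dock11 lie above 0 and Dock5 below 0 in all of them except spike-in scaling (crosses), where all 8 genes lie between -2.34 and -1.13.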

How the data were processed

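The deposited scanner files give each spot's intensity on a linear scale, background-subtracted and detrended within the array, per the file headers. The headers name Agilent Feature Extraction 10.7.1.1, the submitters' processing notes 9.5.1.1. The authors' deposited value table holds linear intensities found to be quantile normalised (98.9% of sorted values equal in both columns, tolerance 0; median of each column 27.9; correlation of its log2 values with the matching scanner file at least 0.999). It served as an alternative, and 0 value columns were left unused. Its scale and direction were found by that comparison, and no centring was seen. Per the labels, total RNA was isolated with Isogen and labelled with Cy3. The sources used here do not say whether each sample came from 1 mouse or several.

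Spots of 1 probe were averaged as log2 of processed intensity, and the array's 75th percentile was subtracted (Python 3.11.15, pandas 2.3.3). Non-uniform spots (3 and 1) and population outliers (44 and 39 on the Dock8+/- and Dock8-/- arrays) were left out, and 0 spots were saturated. A gene took its brightest probe and counted as measured where both arrays read it well above background. A probe read on 1 array gives a bound: its value there is set against whichever is higher on the other array, its own dim value or the lowest intensity among probes that passed (17.4 and 16.1). Where its own dim value is higher, as for Dock2, the result is the difference itself and not a lower limit. Of all probes, 56.9% and 50.7% were well above background. Probes printed 10 times had an SD of 0.04 and 0.05 (log2), so 2 single spots differ with an SD of 0.07. The 2 arrays limit the precision. Probes were named through a RefSeq table of GRCm38.p6, used for names only (32990 by accession, 10224 by symbol, 520 by older symbol, 12867 kept the file's name). All 41 DOCK probes had the same name in both. Positions are those of the files, on mm9, and exon and UTR annotation was not used here.

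All 9 members are described with every probe. Beside them are named Dock8, the Rac, Cdc42, Rhog and Elmo genes, up to 2 highest and 2 lowest genes of each pathway list, and preset cell markers. Some genes that this rule takes are not reported here. No gene was named for likeness to a member, since 2 arrays give 1 difference per gene. The members and lists were chosen with earlier results of these data known. Alternatives were other percentiles, quantile normalisation, loess (span of 0.3) and normexp (offset of 50, limma 3.58.1), spike-ins, the authors' deposited table, averaging the probes of a gene, leaving out purine-repeat probes (4 or more units of GA or GAA), other filters and fold sizes. The scripts were tested on simulated arrays.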

Additional observations from a re-analysis of the deposited data

How the results depend on the processing

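No paired analysis was possible because there is 1 array per genotype and no test was run. For the same reason no replicate could be left out. Against a main median of 0.25 over the measured DOCK genes, normexp gave 0.14, the mean of probes 0.47 and spike-in scaling -1.60. The other detection flag (positive and significant) and no filter on dim probes each gave 0.12, since both add Dock2 at -0.55, beside all-gene medians of 0.08 and 0.43. No DOCK gene was at least 2-fold higher or lower, but 8 were lower under spike-in scaling and 2 were higher at a size of 1.5-fold. Over all genes, the main counts were 1694 higher and 1312 lower. They became 703 and 865 with normexp, 57 and 16293 on the spike-in scale, and with the other flag 3403 and 2070. Without a filter they were 5437 and 2760, at 1.5-fold 3888 and 3151, and at 3-fold 486 and 424. Loess gave 1296 and 1532. Quantile normalisation gave 1448 and 1387, while the values the authors deposited gave 1463 and 1405. Sizes and filters change counts by construction, and spike-in scaling shifts all genes alike; otherwise the cause was not tested. Over all results and alternatives, 120 values stayed within the spot error or within 1.5 times the main count and 42 moved. Signs turned for Dock1 under normexp (-0.13), for Dock6 with the mean of probes (0.22) and, on the spike-in scale, for the DOCK median and each DOCK gene above 0. With 3 to 9 probes a gene and 15 of 41 probes dim on at least 1 array, low signal limits what can be said of Dock2, Dock6 and the dim probes of Dock10.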
